A study of Mus musculus with 6 samples.

Results

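Receptors for glutamate, GABA, glycine, acetylcholine and serotonin were examined as a gene group in RNA from the growing end of the mouse incisor. The group was chosen by gene symbol, and the 72 matching symbols less 2 antisense names left 70 of the 25703 genes in the deposited count table. It holds 14 GABA-A and 2 GABA-B genes, 4 AMPA, 5 kainate, 7 NMDA, 2 delta and 4 metabotropic glutamate receptor genes, 12 nicotinic and 5 muscarinic genes, 11 serotonin receptor genes and 3 glycine receptor genes. The symbol rule also takes in Grid2ip, which encodes a scaffold protein of the delta receptor and is not a receptor. There were 3 libraries of Gli1-CreER;Arid1a fl/fl incisors (Arid1a cKO) and 3 of Arid1a fl/fl incisors (control), all from 6-week-old mice on a C57BL/6 background. Both genotypes carried the floxed Arid1a alleles and the labels give 1 tamoxifen protocol for all of them (1.5 mg per 10 g body weight on 3 days, started at 1 month), so the CreER allele is the labelled difference. Recombination is limited to cells in which Gli1 drives the CreER, mesenchymal stem cells of the incisor among them, and to their descendants, and other cells of the tissue keep Arid1a. The comparison asks how loss of Arid1a, a DNA-binding component of SWI/SNF, which moves nucleosomes, alters transcription in this tissue.

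Ionotropic receptors are ion channels opened by the transmitter itself, and they assemble from several subunits, each encoded by its own gene. Glutamate, acetylcholine and serotonin type 3 channels pass cations and excite a cell, whereas GABA-A and glycine channels pass chloride. Metabotropic, muscarinic, GABA-B and the other serotonin receptors signal through G proteins. These families are best known from neurons, although many members are also transcribed in glia, bone, epithelium and other non-neuronal cells. The cell bodies of the sensory neurons that supply a tooth lie outside it, in the trigeminal ganglion.

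The libraries held 27300932 to 37908478 counts. Arid1a, counted over the whole gene, had 136, 139 and 145 CPM (counts scaled to the size of the library) in Arid1a cKO and 222, 249 and 223 CPM in control (log2 fold change -0.72, edgeR adjusted p = 0.00802). Gli1, whose promoter drives the CreER, was at 106, 107 and 107 CPM in Arid1a cKO and at 137, 160.1 and 163 CPM in control (log2 fold change -0.52, edgeR adjusted p = 0.0162). Sex-linked transcripts differed within each genotype: Xist was at 2807 CPM in Arid1a cKO replicate 1 and at 3894 CPM in control replicate 3, and at 1.05 to 4.39 CPM in the other 4 libraries. Markers of odontoblasts, the cells that form dentin, summed to 23608 to 26246 CPM in Arid1a cKO and to 14213 to 36395 CPM in control. Most of that sum was Col1a1, and the odontoblast marker Dspp was at 1260 to 4521 CPM over the 6 libraries. Whether each library is a different mouse is not said in the labels, and the p-values cover the spread between libraries, which may be technical.

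Receptor transcripts were scarce. Together the 70 genes made up 0.055% of the counts, with sums of 455, 583 and 545 CPM in Arid1a cKO and 574, 604 and 540 CPM in control, which overlap. Gria3, Gabbr1 and Grik5 alone gave 53.9% of that sum. Of the 70 genes, 39 had a mean of at least 1 CPM and 10 of at least 10 CPM. A filter on low counts (about 0.319 CPM in at least 3 libraries) left 49 for testing. The other 21 had totals of 10 to 52 counts over the 6 libraries. In 42 of the 49 tested genes both groups reached that level in every library, and in Htr1a, Grin2c, Gabrd and Grik2 the Arid1a cKO group alone did so. The control group alone did so in Htr3a and Chrna1, and in Chrm4 neither group did. The tested genes are therefore not a sample of the whole group.

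Levels per length differed widely among the genes. Measured as mean CPM per kb of merged exons over the 6 libraries, the AMPA subunit Gria3 (15.9), the GABA-binding subunit Gabbr1 (10.96), and the kainate subunits Grik5 (10.6), Grik1 (6.38) and Grik4 (3.86) were highest, followed by the NMDA subunit Grin2d (3.36) and the glycine receptor subunit Glrb (3.04). Grik1, a channel partner of Grik5, was thus among the highest, and the AMPA subunit Gria4 was at 2.18 CPM per kb. Some other partners of these subunits lay lower on the same scale. Grin1, the subunit found in every NMDA receptor, was at 0.245 CPM per kb. Gabbr2, which couples the GABA-B receptor to G proteins, was at 0.0807 CPM per kb. Gria2, the subunit that makes AMPA channels impermeable to calcium, was at 0.0648 CPM per kb. The glycine-binding subunits Glra4 and Glra3 were at 0.0721 and 0.0114 CPM per kb. The highest of 5 other families were the nicotinic subunit Chrna6 (2.26 CPM per kb), the group III metabotropic glutamate receptor Grm4 (1.20), the serotonin receptor Htr1b (1.03), the GABA-A subunit Gabra3 (1.02) and the muscarinic receptor Chrm2 (0.255). These values use every annotated exon, so a gene expressed from a short isoform is understated.

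**Figure D1:**
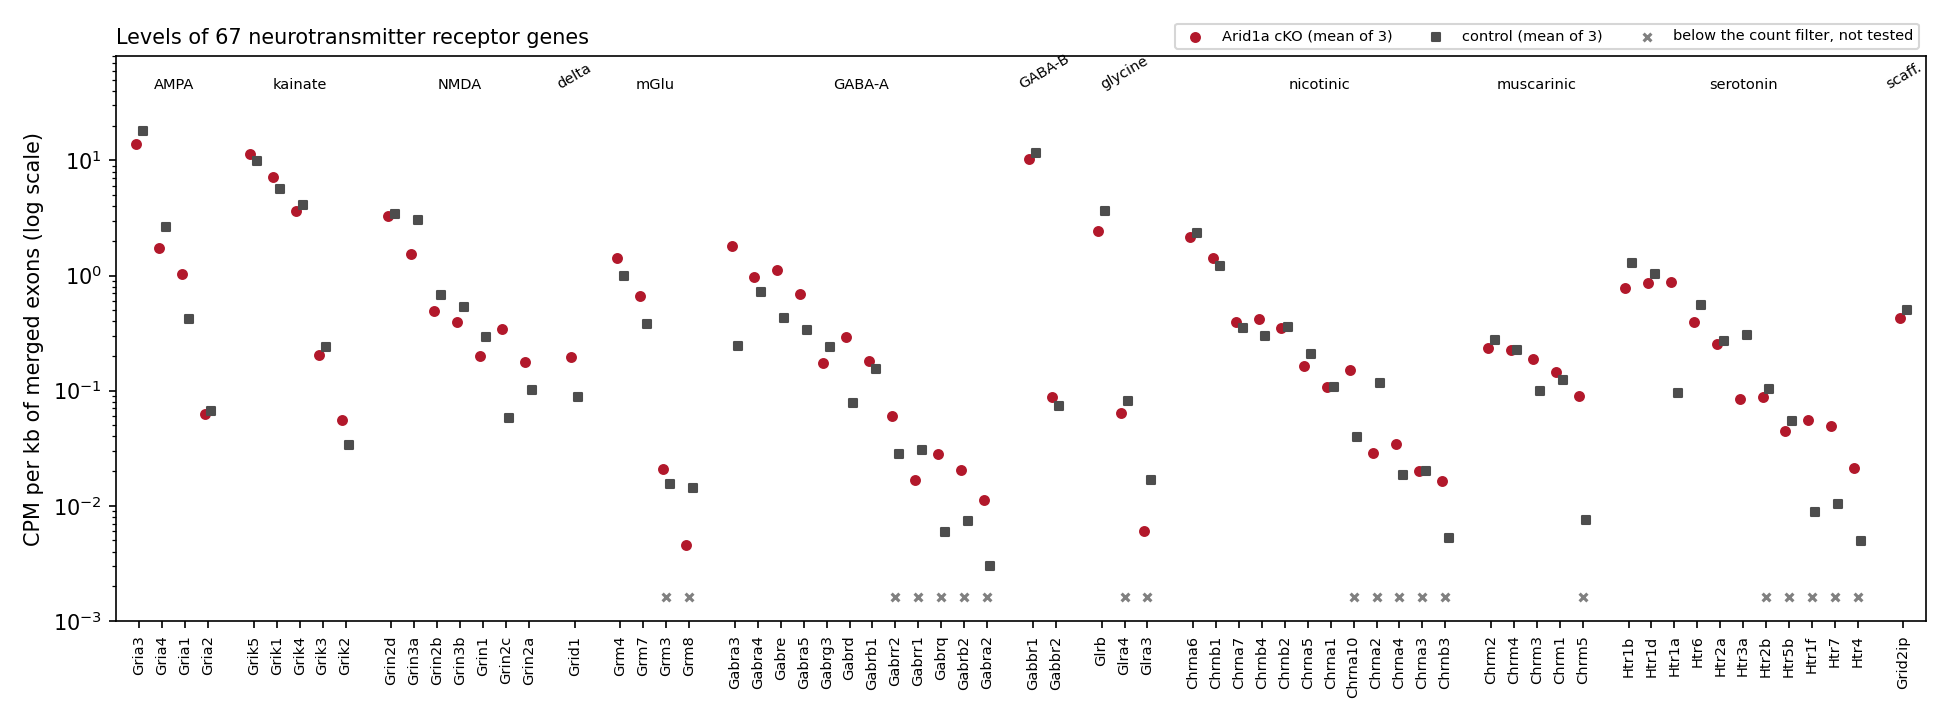
Mean level of 67 of the 70 genes in CPM per kb of merged exons (log axis), with Arid1a cKO (circles) left of control (squares), ordered by family and level, and crosses under the 20 of these below the count filter. Gria3, Gabbr1 and Grik5 lie at the top, and within most families the levels span more than 1 power of 10.

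Between genotypes, 3 of the 49 tested receptor genes were higher in Arid1a cKO and 1 was lower at an adjusted p under 0.05 (edgeR quasi-likelihood test, Benjamini-Hochberg over all 19613 genes tested), and 45 did not pass. The genes that rose were Gabra3, Htr1a and Gria1, and Htr3a fell. That is 8.16% of the tested members, against 3.96% of all genes tested (1.50% higher and 2.46% lower). With so few calls the share says little about the group. The rule of the group also names Gabra3 and Htr1a, and it was set with earlier results of these data known. The shares of members given here are therefore not independent of these data. The 4 calls fall in 3 families: GABA-A, AMPA and serotonin receptors. At an unadjusted p under 0.05, 14 members (28.6% of those tested) were higher and 4 (8.16%) lower, against 10.0% and 11.9% of all genes tested. The same shares of all genes stand beside the counts at an unadjusted p by family and by list below. Positive log2 fold changes were found in 24 and negative ones in 25 of the tested members, with a median of -0.01 against 0.00 over all genes. The median absolute log2 fold change was 0.44 against 0.16 over all genes, and the median standard error was 0.277 against 0.126, at a median level of 2.50 CPM against 15.1 CPM. The groups did not overlap in 21 of the 49 tested members (15 with Arid1a cKO above and 6 below), or 42.9%, against 29.1% of all genes tested. Among these 21 are Htr1a, Grin2c, Gabrd, Grik2 and Htr3a, which reached the count filter only through the group where they are higher. Htr1a and Htr3a are also among the 4 calls. The shares of members therefore depend in part on that filter. DESeq2 placed 8 members higher and 1 lower: it added 5 genes, Gabrd, Gabre, Grin2a and Grin2c among them, to the 3 that rose, gave Grin3a as lower and gave Htr3a no adjusted p. DESeq2 called more genes throughout the table, 10.5% of all genes with an adjusted p (4.50% higher and 5.98% lower), against 19.1% of the 47 members with one. The number of members higher was 3, 0 and 0 when Arid1a cKO replicate 1, 2 or 3 was left out in turn, and 0, 2 and 1 for control replicates 1, 2 and 3. These were not always the same genes. Without Arid1a cKO replicate 1 they were Gabra3, Htr1a and Gabre, and without control replicate 2 they were Htr1a and Gria1. Without control replicate 3 the 1 gene was Grin2c. Over all genes the number higher, 295 with all libraries, was 55 to 193 with 1 library left out.

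**Figure D2:**
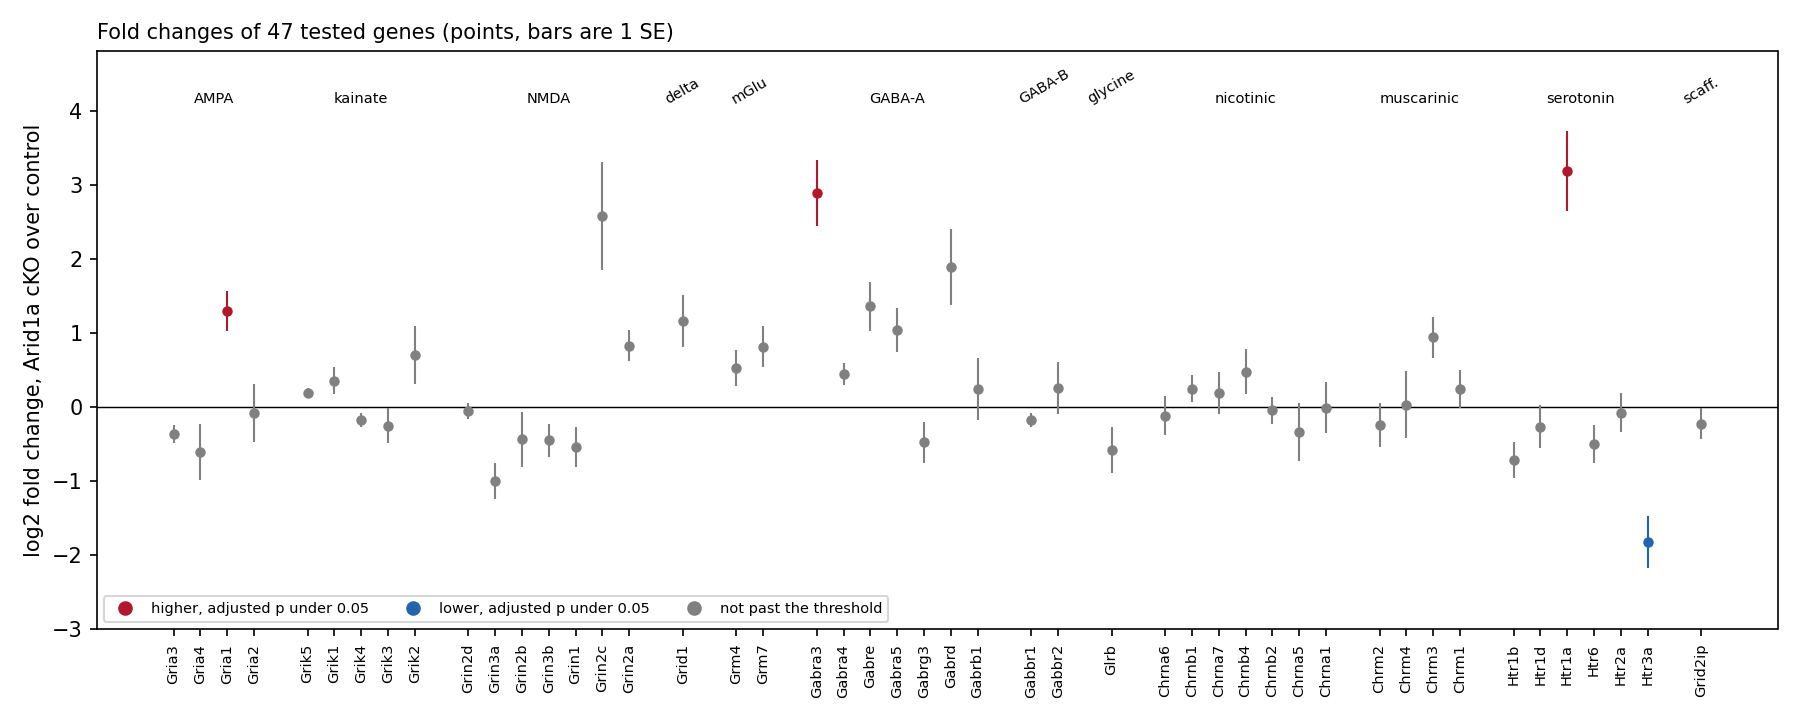
Log2 fold change of Arid1a cKO over control for 47 of the 49 tested genes, by family, with bars of 1 SE. Gabra3, Htr1a and Gria1 (red) passed the threshold upward and Htr3a (blue) downward, and the widest bar is that of Grin2c.

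Gabra3 (Ensembl gene ENSMUSG00000031343.13) encodes the alpha-3 subunit of the GABA-A channel and lies on the minus strand of chromosome X, from 72432681 to 72656848 (mm10). It had 3.54, 8.20 and 9.43 CPM in Arid1a cKO and 0.574, 1.05 and 1.24 CPM in control. Every Arid1a cKO library was above every control library, and Arid1a cKO replicate 1 was the lowest of its group. These values stand on 139, 303 and 286 counts in Arid1a cKO and on 18, 29 and 34 counts in control. The means were 7.06 ± 3.11 and 0.955 ± 0.344 CPM (SD, n = 3 each), a 7.40-fold higher level in Arid1a cKO (log2 fold change 2.89, SE 0.448, edgeR adjusted p = 0.0228). Gabra3 was the lowest in control of the 3 GABA-A genes with the highest mean level per length, at 0.243 CPM per kb, and the highest in Arid1a cKO, at 1.80 CPM per kb. The adjusted p was 0.00498 without Arid1a cKO replicate 1, but 0.056 and 0.0674 without replicate 2 or 3 of that group and 0.0807, 0.0758 and 0.0696 without control replicate 1, 2 or 3. With a term for sex, which bears on a gene of the X chromosome, the log2 fold change was 2.80 (adjusted p = 0.0238 by edgeR).

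Htr1a (ENSMUSG00000021721.5) encodes the serotonin 1A receptor, which lowers cyclic AMP through inhibitory G proteins, and lies on the plus strand of chromosome 13, from 105443639 to 105448122. It had 2.22, 5.74 and 3.89 CPM in Arid1a cKO and 0.351, 0.761 and 0.183 CPM in control, and the groups did not overlap. The control values rest on 11, 21 and 5 counts and the Arid1a cKO values on 87, 212 and 118 counts. Its mean was 3.95 ± 1.76 CPM in Arid1a cKO and 0.431 ± 0.298 CPM in control (SD, n = 3 each), a 9.11-fold higher level (log2 fold change 3.19, SE 0.54, edgeR adjusted p = 0.0287), the widest fold among the 49 tested members. The adjusted p was above the threshold when Arid1a cKO replicate 2 (0.0523) or 3 (0.0833), or control replicate 1 (0.113) or 3 (0.077), was left out.

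The start regions of these genes, the 2 members with the largest rise, are shown because they differ in base composition. Each is the RefSeq window (GRCm38.p6) from 250 bases before to 50 bases after an annotated start, read 5′ to 3′ on the strand of the gene, with CG dinucleotides in capitals. The Gabra3 window is chrX:72656758-72657057 on the minus strand, and its start lies 41 bases from the deposited gene start. The Htr1a window is chr13:105443443-105443742 on the plus strand, with a start 54 bases away.
Gabra3: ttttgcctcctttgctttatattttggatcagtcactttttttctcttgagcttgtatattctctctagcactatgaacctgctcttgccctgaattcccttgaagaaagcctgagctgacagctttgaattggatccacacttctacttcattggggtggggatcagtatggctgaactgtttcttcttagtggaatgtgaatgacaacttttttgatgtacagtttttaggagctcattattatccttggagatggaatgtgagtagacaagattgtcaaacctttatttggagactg
Htr1a: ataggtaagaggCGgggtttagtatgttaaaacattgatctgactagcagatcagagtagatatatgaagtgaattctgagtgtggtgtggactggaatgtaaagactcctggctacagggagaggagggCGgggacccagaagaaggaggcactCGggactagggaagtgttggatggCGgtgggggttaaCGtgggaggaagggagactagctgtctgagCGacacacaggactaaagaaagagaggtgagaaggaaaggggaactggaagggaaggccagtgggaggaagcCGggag
The Gabra3 window holds 0 CG dinucleotides, as do 5.43% of 32851 windows of all genes, and it was the only 1 with none among the windows of 51 members. Of these 51 windows, 45 start within 250 bases of the deposited gene start, and the farthest starts 11697 bases away (Grin2d). The Htr1a window holds 7, which is the median of all windows, against a median of 14 in the members' windows, also over the 45 near ones. The 2 sets are not alike. Each member has 1 window, the nearest to its deposited start, whereas the 32851 windows are all those of 27025 genes. The AP-1 motif TGACTCA, searched on both strands, was in neither window. It was found in 1 of the members' windows, that of Chrna1, and in 5.20% of all windows. A 10-base part of the RE1 element, to which the repressor REST binds, was in 0 of the members' windows and in 0.137% of all windows. With a sequence that rare, finding 0 among 51 windows says little.

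Gria1 (ENSMUSG00000020524.16, chromosome 11, 57011387 to 57330244, plus strand) encodes the GluA1 subunit of AMPA receptors. It was at 6.01, 5.93 and 6.73 CPM in Arid1a cKO and at 1.82, 3.77 and 2.05 CPM in control. The Arid1a cKO libraries lay close together and above all controls. Its mean was 6.22 ± 0.439 CPM in Arid1a cKO and 2.54 ± 1.07 CPM in control (SD, n = 3 each), 2.45-fold higher (log2 fold change 1.29, SE 0.271, edgeR adjusted p = 0.0443). The call was lost without each of 5 libraries: Arid1a cKO replicate 1 (adjusted p = 0.0814), 2 (0.0819) or 3 (0.125) and control replicate 1 (0.122) or 3 (0.131).

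Htr3a (ENSMUSG00000032269.8, chromosome 9, 48899213 to 48911099, minus strand) encodes the subunit that serotonin-gated cation channels require. It was at 0.178, 0.217 and 0.132 CPM in Arid1a cKO and at 0.669, 0.507 and 0.730 CPM in control, with no overlap. These are 7, 8 and 4 counts in Arid1a cKO and 21, 14 and 20 counts in control, among the fewest of the tested members. The mean was 0.176 ± 0.0424 CPM in Arid1a cKO and 0.636 ± 0.115 CPM in control (SD, n = 3 each), 3.53-fold lower (log2 fold change -1.82, SE 0.35, edgeR adjusted p = 0.0346). Without Arid1a cKO replicate 1, 2 or 3 the adjusted p was 0.0797, 0.0655 and 0.116, and without control replicate 1, 2 or 3 it was 0.115, 0.0658 and 0.111, so the call needed all 6 libraries. None of the exons of Gabra3, Htr1a, Gria1 and Htr3a overlaps an exon of another annotated gene. Among the other tested members, Gabra5, Grm7, Grin1, Grin2b, Grin2c, Grin2d, Chrm1, Chrm2, Htr1b and Grid2ip share exons with non-coding genes on the opposite strand, and Chrnb2 and Grin3b do with the protein-coding genes Adar and Tmem259, so their counts are less certain.

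**Figure D3:**
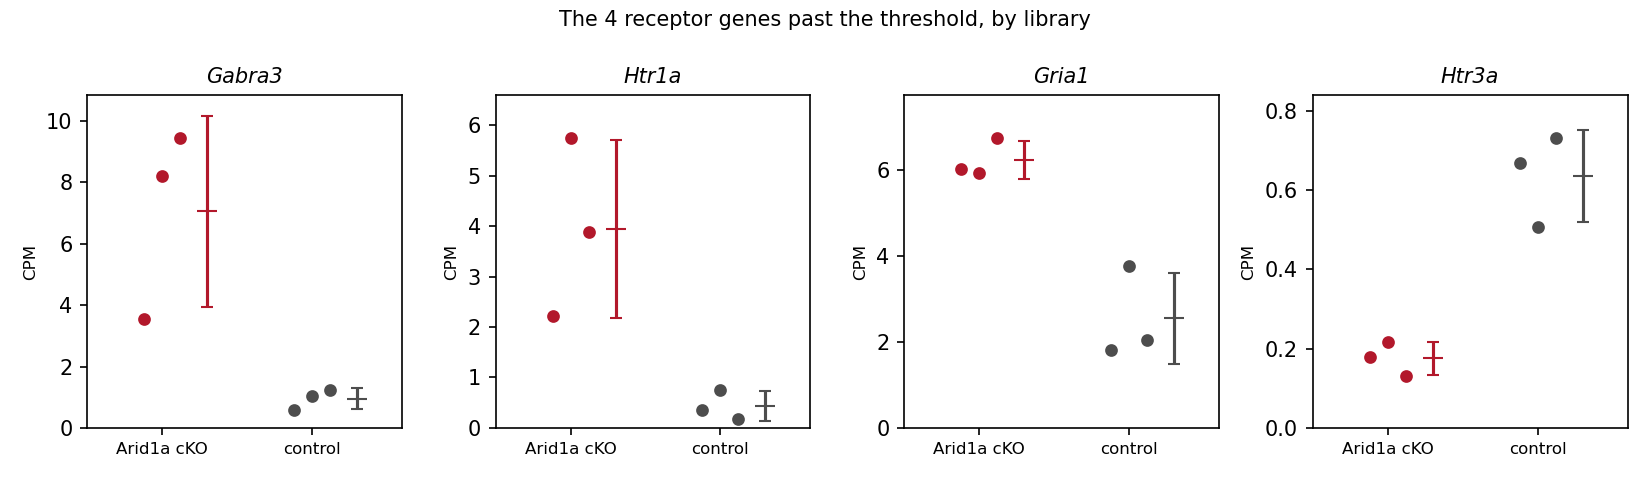
Level (CPM) of Gabra3, Htr1a, Gria1 and Htr3a in each library, with Arid1a cKO left of control, points for replicates 1 to 3 from left to right, and the mean with SD beside them. The groups do not overlap in any of the 4 panels, and Gabra3 and Htr1a spread most within Arid1a cKO.

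GABA-A subunits other than Gabra3 gave positive log2 fold changes in 6 of 7 tested genes, but 0 of these 7 passed the threshold with edgeR. An unadjusted p under 0.05 was found for 5 of them, all higher, where 10.0% of all genes tested were higher at that level. DESeq2 called 3 of the 7, Gabrd and Gabre among them, where 4.50% of all genes with an adjusted p were higher. In Gabrd the Arid1a cKO group alone reached the count filter, so its place among the tested genes depends on its higher level there. Gabre encodes the epsilon subunit and is the neighbour of Gabra3 on chromosome X, with 157.9 kb between the genes. It was at 3.21, 5.74 and 6.76 CPM in Arid1a cKO and at 1.40, 2.43 and 2.30 CPM in control. The groups were separate, and as in Gabra3 replicate 1 was the lowest library of each group (log2 fold change 1.36, SE 0.326, edgeR adjusted p = 0.0635, or 0.0236 without Arid1a cKO replicate 1). Gabrq, the theta subunit on the other side of Gabra3 at 168.3 kb, had 4, 8 and 4 counts in Arid1a cKO and 3, 0 and 0 in control and was not tested.

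Gabra5 and Gabrg3, the alpha-5 and gamma-3 subunits, lie next to each other on chromosome 7. Gabra5 was at 2.62, 2.08 and 1.52 CPM in Arid1a cKO and at 1.31, 0.942 and 0.767 CPM in control. Its groups were separate, with an edgeR adjusted p of 0.0931. Gabrg3 had the opposite sign (log2 fold change -0.47, adjusted p = 0.359) and overlapping groups. On chromosome 5, Gabra4 was at 6.50, 5.36 and 5.90 CPM in Arid1a cKO and at 3.86, 4.68 and 4.53 CPM in control (adjusted p = 0.13 by edgeR), while Gabrb1 overlapped between the groups (0.785). Exons of Gabra4 and Gabrb1 overlap each other on opposite strands. Whether counting used strand is not stated in the sources used here, so reads of the shared part cannot be told apart. Gabrd, the delta subunit of receptors outside synapses, was at 0.459, 1.14 and 0.923 CPM in Arid1a cKO and at 0.0956, 0.254 and 0.329 CPM in control (log2 fold change 1.89, adjusted p = 0.084 by edgeR). Summed over the 14 GABA-A genes the level was 26.5, 32.9 and 37.5 CPM in Arid1a cKO and 15.2, 20.0 and 17.1 CPM in control. The means of that sum were 32.3 and 17.4 CPM. It includes Gabra3, with means of 7.06 CPM in Arid1a cKO and 0.955 CPM in control. As the rule of the group names Gabra3, the sum does not stand for the other subunits. Gabra2, Gabrb2, Gabrq, Gabrr1 and Gabrr2 had totals of 10 to 19 counts and were not tested.

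**Figure D4:**
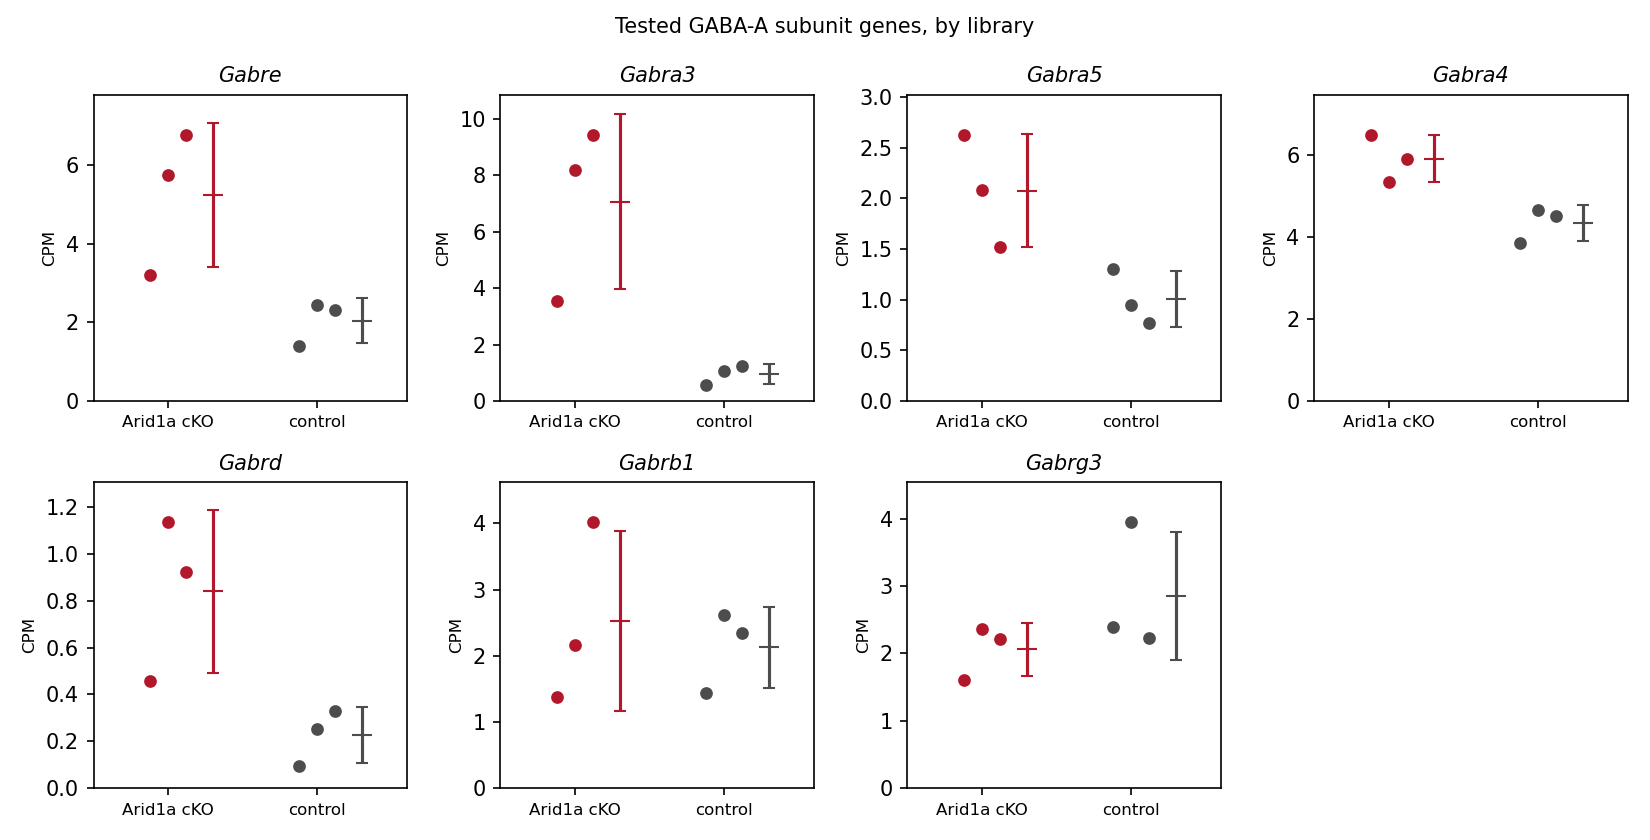
Level (CPM) of 7 tested GABA-A subunit genes in each library, with Arid1a cKO left of control and the mean with SD beside the points (replicates 1 to 3 from left to right). The groups are separate in Gabre, Gabra3, Gabra5, Gabra4 and Gabrd and overlap in Gabrb1 and Gabrg3.

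None of the 2 GABA-B genes and the 1 tested glycine receptor gene passed with edgeR or DESeq2, and 0 had an unadjusted p under 0.05. Gabbr1 was at 70.6, 81.6 and 88.0 CPM in Arid1a cKO and at 82.1, 96.2 and 91.9 CPM in control, which overlap (log2 fold change -0.17, SE 0.0952, edgeR adjusted p = 0.339). Gabbr2 had a log2 fold change of 0.26 at 0.587 ± 0.185 CPM in Arid1a cKO and 0.493 ± 0.121 CPM in control (SD, n = 3 each). Glrb, which anchors glycine receptors to gephyrin, was at 8.36, 15.5 and 10.2 CPM in Arid1a cKO and at 23.7, 14.2 and 13.1 CPM in control (adjusted p = 0.33 by edgeR). Control replicate 1 was the high library there.

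The 3 AMPA subunits other than Gria1 had negative log2 fold changes and did not pass by edgeR or DESeq2, with 1 at an unadjusted p under 0.05. Gria3, the most abundant receptor gene of the group, was at 112, 151 and 147 CPM in Arid1a cKO and at 178, 192 and 159 CPM in control. All 3 Arid1a cKO libraries were lower, yet the difference missed the threshold (log2 fold change -0.37, SE 0.124, edgeR adjusted p = 0.143, or 0.0237 with a term for sex). Gria3 lies on chromosome X, from 41400854 to 41678601. With the term for sex more genes passed over the whole table too, 817 lower against 482 without it. For Gria4 the log2 fold change was -0.61 (edgeR adjusted p = 0.401), and for Gria2 it was -0.08 (0.927). Per length Gria1 stayed below Gria3 in both genotypes, at 1.03 against 13.9 CPM per kb in Arid1a cKO and at 0.421 against 17.9 CPM per kb in control.

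Kainate receptor genes gave no call with edgeR or DESeq2, and 1 of 5 had an unadjusted p under 0.05. Grik5, a high-affinity subunit that needs a partner such as Grik1 to form a channel, was at 57.9, 57.0 and 60.5 CPM in Arid1a cKO and at 48.2, 50.9 and 54.7 CPM in control. The groups were separate by a small margin (log2 fold change 0.19, SE 0.0657, edgeR adjusted p = 0.147). Grik1 was at 38.2, 59.0 and 47.1 CPM in Arid1a cKO and at 42.3, 39.8 and 31.0 CPM in control, which overlap (adjusted p = 0.312, and 0.0274 once the model held a score of dental epithelium markers). Grik4, Grik3 and Grik2 had log2 fold changes of -0.17, -0.26 and 0.70 with adjusted p of 0.331 to 0.573.

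Among NMDA subunits the log2 fold changes had both signs and 0 of 7 passed by edgeR, although 2 were higher and 1 lower at an unadjusted p under 0.05, the same numbers as with DESeq2. Grin3a, a glycine-binding subunit that lowers calcium permeability, was at 13.9, 25.0 and 17.3 CPM in Arid1a cKO and at 46.4, 31.1 and 35.2 CPM in control. The groups did not overlap and the mean was 18.8 ± 5.67 CPM in Arid1a cKO and 37.6 ± 7.91 CPM in control (SD, n = 3 each), with a log2 fold change of -1.003 (SE 0.247, edgeR adjusted p = 0.0808, or 0.042 without Arid1a cKO replicate 2). Grin2a, a glutamate-binding subunit, was at 3.31, 2.87 and 3.40 CPM in Arid1a cKO and at 1.40, 2.17 and 1.83 CPM in control. Its groups were separate in the other direction (log2 fold change 0.83, SE 0.212, adjusted p = 0.0724). Grin2d, the most abundant subunit per length, overlapped (log2 fold change -0.06, adjusted p = 0.793). Grin3b, related to Grin3a, was at 1.10, 1.52 and 1.25 CPM in Arid1a cKO and at 1.98, 1.70 and 1.61 CPM in control (log2 fold change -0.45, edgeR adjusted p = 0.279). Its groups were separate, with Arid1a cKO below. Grin2b was at 9.96, 18.1 and 8.84 CPM in Arid1a cKO and at 12.6, 24.5 and 12.96 CPM in control, with replicate 2 the highest in both groups (adjusted p = 0.546 by edgeR). Grin2c was at 1.63, 1.41 and 2.11 CPM in Arid1a cKO and at 0.0319, 0.145 and 0.694 CPM in control, a wide spread within control (log2 fold change 2.58, SE 0.724, edgeR adjusted p = 0.0987). This gene was picked out after its values were seen. Grin1, which an antisense gene overlaps, had a log2 fold change of -0.54 and an adjusted p of 0.289.

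None of the 2 delta and 2 tested metabotropic glutamate receptor genes passed with edgeR or DESeq2, and 1 of each had an unadjusted p under 0.05. Grid1 was at 1.38, 1.38 and 0.759 CPM in Arid1a cKO and at 0.382, 0.544 and 0.657 CPM in control (log2 fold change 1.16, edgeR adjusted p = 0.103). Grm7, a presynaptic receptor of group III, was at 3.90, 3.49 and 4.35 CPM in Arid1a cKO and at 1.31, 2.79 and 2.59 CPM in control (log2 fold change 0.81, adjusted p = 0.145 by edgeR). Grm4, of the same group, was at 9.20, 10.2 and 5.97 CPM in Arid1a cKO and at 7.27, 4.53 and 5.84 CPM in control, which overlap (adjusted p = 0.259). Grm3 and Grm8 had 11 and 17 counts in all 6 libraries together. The scaffold gene Grid2ip was at 2.50, 3.06 and 3.10 CPM in Arid1a cKO and at 2.55, 3.95 and 3.62 CPM in control, which overlap (log2 fold change -0.22, edgeR adjusted p = 0.579).

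Cholinergic receptors, 7 nicotinic and 4 muscarinic genes tested, gave no call with edgeR or DESeq2, and 1 muscarinic gene had an unadjusted p under 0.05. Chrna6, a nicotinic subunit best known from dopamine neurons, was at 5.53, 8.39 and 4.98 CPM in Arid1a cKO and at 7.97, 4.82 and 7.71 CPM in control, which overlap fully (log2 fold change -0.12, edgeR adjusted p = 0.837). The muscle subunits Chrnb1 and Chrna1 had log2 fold changes of 0.25 and -0.01, and Chrnb4, a subunit of ganglionic receptors, of 0.48 (adjusted p = 0.402). Chrna7, which can form channels by itself, and Chrnb2, the usual partner of Chrna4 in brain, averaged 1.79 ± 0.303 and 2.92 ± 0.343 CPM in Arid1a cKO and 1.58 ± 0.530 and 3.02 ± 0.350 CPM in control (SD, n = 3 each). Both overlapped between the groups, as did Chrna5 (log2 fold change -0.34, edgeR adjusted p = 0.662). Of the 5 nicotinic genes below the filter, Chrna10 had 15.3, 11.998 and 14.6 estimated counts in Arid1a cKO and 2.95, 2.86 and 3.30 in control, and its exons overlap Art1 on the opposite strand. In Chrna2, 29 of 52 counts came from control replicate 1. Both were named after their values were seen. Among muscarinic receptors Chrm3, which signals through phospholipase C, was at 1.35, 0.974 and 1.22 CPM in Arid1a cKO and at 0.574, 0.507 and 0.767 CPM in control (log2 fold change 0.94, SE 0.276, adjusted p = 0.101 by edgeR). Chrm2, Chrm1 and Chrm4 had log2 fold changes of -0.24, 0.24 and 0.03 with overlapping groups. Chrm5 had 3, 7 and 5 counts in Arid1a cKO and 0, 1 and 0 in control and was not tested.

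Serotonin receptors moved apart from each other: Htr1a rose, Htr3a fell, and the other 4 tested genes had negative log2 fold changes and did not pass by edgeR or DESeq2 (1 at an unadjusted p under 0.05). Htr1b, an inhibitory receptor related to Htr1a, was at 2.62, 4.52 and 3.92 CPM in Arid1a cKO and at 7.11, 4.75 and 6.28 CPM in control. All Arid1a cKO libraries were below all controls (log2 fold change -0.71, SE 0.239, edgeR adjusted p = 0.133). Htr6, Htr1d and Htr2a had log2 fold changes of -0.50, -0.26 and -0.08. Summed over the 11 genes, the level was 11.6, 14.6 and 14.5 CPM in Arid1a cKO and 13.5, 13.3 and 14.1 CPM in control, so the rise of Htr1a was not seen in the family sum. Htr2b, Htr4, Htr5b, Htr1f and Htr7 had totals of 14 to 40.5 counts and were not tested. Of these, Htr1f had 4, 6 and 5 counts in Arid1a cKO and 1, 1 and 0 in control.

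Genes that make, move or anchor the transmitters and their receptors were listed in 6 groups. Of 87 tested, 2 rose, 2 fell and 83 did not pass, so that 4.60% were called, close to the 3.96% of all genes tested, with a median log2 fold change of 0.02 against 0.00 over all genes. The GABA transporter Slc6a13 was at 3.47, 3.87 and 4.25 CPM in Arid1a cKO and at 1.53, 0.616 and 0.949 CPM in control (3.71-fold higher, log2 fold change 1.89, SE 0.309, edgeR adjusted p = 0.0215). It was the 1 of 15 tested genes of GABA synthesis, transport and receptor assembly to pass. Next in that list was Kctd12, an auxiliary subunit of GABA-B receptors, at 2527, 3630 and 3268 CPM in Arid1a cKO and at 4896, 4886 and 4633 CPM in control (log2 fold change -0.61, adjusted p = 0.0567 by edgeR). Of 23 glutamate receptor scaffold genes, 1 fell: Homer1, which links metabotropic glutamate receptors to calcium stores, was at 12.4, 14.8 and 13.6 CPM in Arid1a cKO and at 20.8, 19.2 and 19.3 CPM in control (1.45-fold lower, adjusted p = 0.0244). The log2 fold change of Dlgap3 was 0.67 (edgeR adjusted p = 0.0999).

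Of 17 genes of acetylcholine breakdown and receptor assembly, 1 fell: Colq, the collagen tail that anchors acetylcholinesterase, was at 4.74, 4.17 and 5.08 CPM in Arid1a cKO and at 8.80, 11.5 and 8.29 CPM in control (2.05-fold lower, edgeR adjusted p = 0.0199). Lypd6b, a modulator of nicotinic receptors, had a log2 fold change of 1.04 and an adjusted p of 0.0558. Of 6 genes of glycine transport and breakdown, 1 rose: Shmt1, a cytosolic enzyme that interconverts serine and glycine, was at 18.5, 18.2 and 17.6 CPM in Arid1a cKO and at 12.8, 13.6 and 11.9 CPM in control (1.42-fold higher, adjusted p = 0.0224 by edgeR), and its mitochondrial counterpart Shmt2 had 0.29 (0.1). In 21 genes of glutamate transport and receptor auxiliaries 0 passed by edgeR (4 higher and 2 lower at an unadjusted p under 0.05, and 1 lower by DESeq2). Cnih2, an auxiliary subunit of AMPA receptors, had a log2 fold change of 0.46 and an adjusted p of 0.165. The 5 tested genes of serotonin synthesis, transport and breakdown gave 0 calls by edgeR and DESeq2 and 0 at an unadjusted p under 0.05, led by the vesicular transporter Slc18a2 (0.43, 0.311) and the oxidase Maoa (-0.14, 0.353). None of these 4 calls held when Arid1a cKO replicate 3 (edgeR adjusted p = 0.0627 to 0.0849) or control replicate 3 (0.051 to 0.0788) was left out. Homer1 was also lost without control replicate 1 (0.0888) or 2 (0.0601), Colq without Arid1a cKO replicate 2 (0.0523) or control replicate 1 (0.0596), Shmt1 without those libraries (0.0574 and 0.0807), and Slc6a13 without Arid1a cKO replicate 2 (0.0507).

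Markers of nerve tissue were mostly of positive sign, but few passed the test. Summed over 14 Schwann cell markers the level was 374, 284 and 325 CPM in Arid1a cKO and 150.4, 269 and 229 CPM in control. Of the 14, 13 had a positive log2 fold change, although none of these 13 passed the threshold by edgeR. At an unadjusted p under 0.05 there were 6 of the 13, against 10.0% of all genes tested that were higher. DESeq2 called Fa2h and Prx, where 4.50% of all genes with an adjusted p were higher. The remaining marker, Cdh19, fell (log2 fold change -1.25, edgeR adjusted p = 0.0127). Neuron markers, 16 of them in the table, summed to 141, 106 and 124 CPM in Arid1a cKO and to 86.6, 97.0 and 106 CPM in control, with Tubb3, Tac1 and Isl1 having the highest levels. All 10 tested neuron markers had a positive log2 fold change and Syt1 passed (2.21, adjusted p = 0.0191 by edgeR). The neurofilament genes Nefl, Nefm and Nefh were at 0.528 CPM or less in every library. The part of nerve in the receptor results was not tested, and fewer cells of a type cannot be told apart from less RNA per cell in such samples.

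Markers of incisor mesenchyme, the compartment of the mesenchymal stem cells, summed to 1378, 1447 and 1512 CPM in Arid1a cKO and to 1743, 1825 and 1629 CPM in control, which do not overlap. Of these 12 genes 3 had a positive log2 fold change, 0 rose and 2 fell. The genes that fell were Gli1 and Msx2, a transcription factor of tooth development, with -0.49 for Msx2 (edgeR adjusted p = 0.0194). Only Arid1a cKO carries the CreER, which the Gli1 promoter drives, and an effect of that allele on Gli1 itself was not tested. Mast cell markers, 9 genes, summed to 135, 189.7 and 150.2 CPM in Arid1a cKO and to 245, 220.01 and 223 CPM in control. Most of that sum was Kit, which other cells also express, with a mean of 149 CPM in Arid1a cKO and 227 CPM in control, while the other 4 tested had positive log2 fold changes and 0 of the 5 passed by edgeR (2 higher and 1 lower at an unadjusted p under 0.05, and the same numbers by DESeq2). The part of these cells in the receptor results was not tested.

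Skeletal muscle markers, 13 in the table, summed to 12.2, 10.9 and 13.6 CPM in Arid1a cKO and to 9.66, 52.6 and 18.8 CPM in control. Control replicate 2 stood apart there, whereas the muscle receptor subunit Chrna1 was at 0.306, 0.623 and 0.495 CPM in Arid1a cKO and at 0.446, 0.507 and 0.475 CPM in control. Dental epithelium markers, 16 genes, summed to 3710, 2005 and 2756 CPM in Arid1a cKO and to 1886, 1761 and 5255 CPM in control, with control replicate 3 and Arid1a cKO replicate 1 highest. In a model with a score of these 16 genes, Gabra3 and Htr1a passed (adjusted p = 0.0384 and 0.00882 by edgeR), while Gria1 (0.0599) and Htr3a (0.0522) did not.

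**Figure D5:**
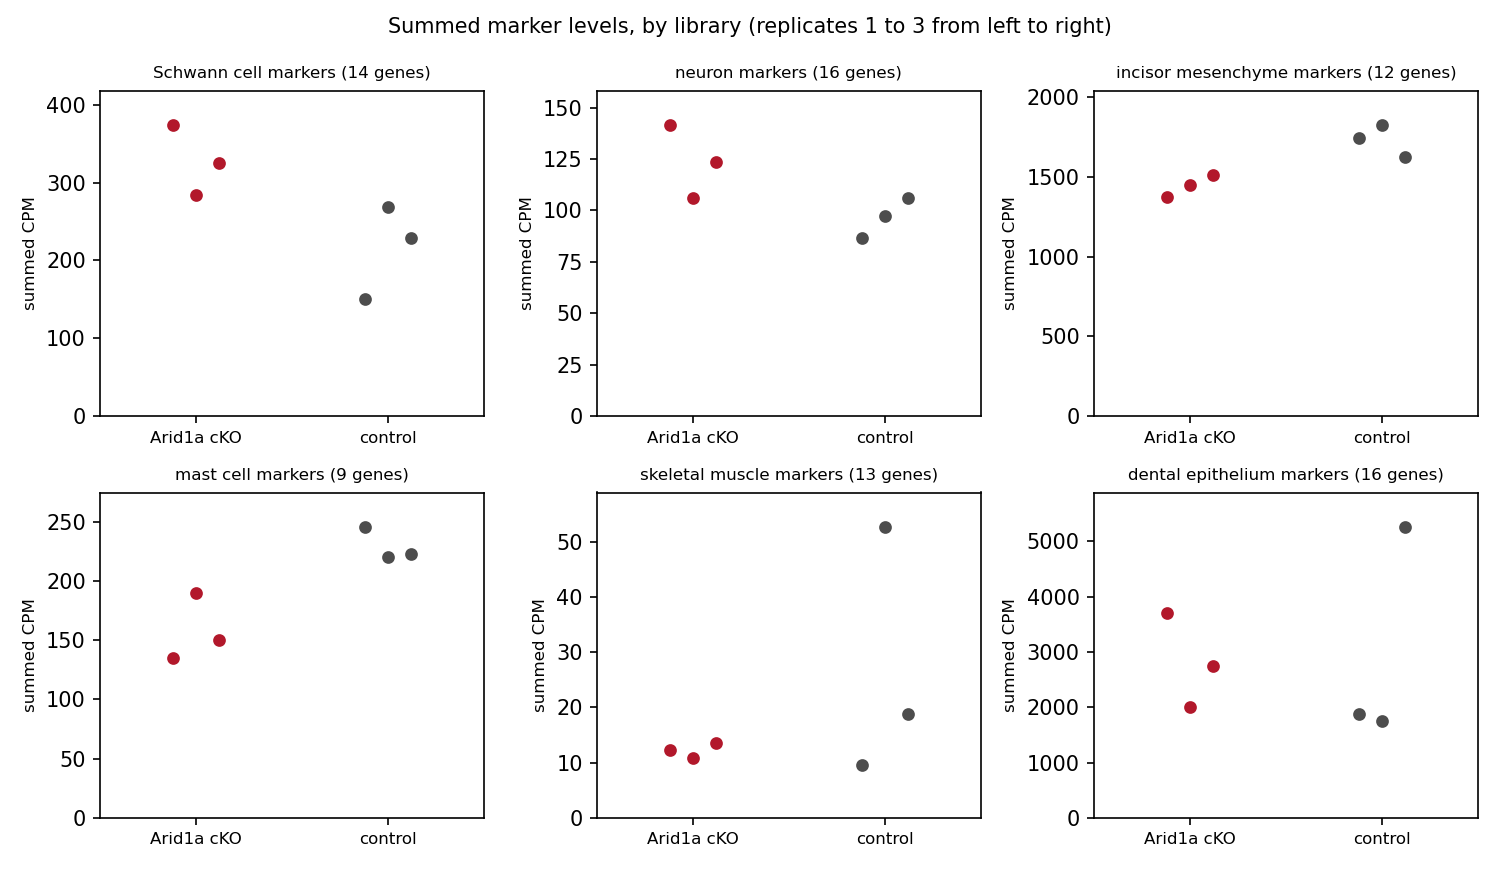
Summed level (CPM) of Schwann cell, neuron, incisor mesenchyme, mast cell, skeletal muscle and dental epithelium markers in each library, with Arid1a cKO left of control and replicates 1 to 3 from left to right. The Schwann cell sums are separate with Arid1a cKO above, and the incisor mesenchyme and mast cell sums with Arid1a cKO below. Most of the mast cell sum is Kit, which other cells also express, and the other tested mast cell markers had positive log2 fold changes.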

How the data were processed

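RNA from the proximal incisor was sequenced as single-end reads of 75 cycles (RIN above 9.0, per the labels' protocols). The submitters' processing notes name the mm10 genome, the aligner STAR (2.6.1d) and Partek. They name no annotation release, library kit or strand setting. The authors deposited estimated counts for 25703 genes, each with a total of at least 10, and a normalized signal table for 21456 genes whose normalization method is not given.

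Members were taken by gene symbol. The members and gene lists were chosen with earlier results of these data known. Estimated counts were rounded and filtered with filterByExpr (minimum count 10), which left 19613 genes, then scaled by TMM (factors 0.961 to 1.04) and tested without covariates by glmQLFit (robust) and glmQLFTest of edgeR, two-sided, with Benjamini-Hochberg adjustment over all genes tested and 0.05 as threshold. CPM use TMM-scaled library sizes. SE was derived from the F statistic, as |log2 fold change|/√F. Replicate numbers follow accession order. Merged exon lengths and overlaps come from GENCODE M21, which matched 97.5% of symbols. Promoter windows come from RefSeq (GRCm38.p6), used for 51 of 70 members. Library totals were 27300932 to 37908478, and most members rest on few counts. Named genes were Gabra3, Htr1a, all members past the threshold, and per family the highest level and the 2 smallest p, with partner genes past the threshold and the 2 smallest p per list. Other genes given by family were added after their values were seen, to account for the other members. A few genes are not reported here. Alternatives were other normalizations, limma-voom, DESeq2, limma run on the authors' normalized signal after log2 (pseudocounts 1 and 0.5), other filters, counts not rounded, robust estimation off, terms for sex and for dental epithelium, and each library left out. The count test was checked on counts simulated from its own fitted means and dispersions, with changed genes drawn from all genes tested. That check does not bear on genes with few counts in particular. Software was Python 3.11.15 with matplotlib 3.10.9, and R 4.3.3 with DESeq2 1.42.0, limma 3.58.1 and edgeR 4.0.16.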

Additional observations from a re-analysis of the deposited data

How the results depend on the processing

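The number of receptor genes higher in Arid1a cKO, 3 with edgeR, was 8 with DESeq2 and 1 where every library had to reach 1 CPM, under which Gabra3 and Htr1a were not tested. Leaving out each library gave 0 to 3, while over all genes it gave 55 to 193 in place of 295. The number lower, 1, was 0 with that filter and 0 in the model with a dental epithelium score, 2 with a term for sex, and 0 to 1 without each library. The 1 lower gene with a library left out was Grin3a, without Arid1a cKO replicate 2, and not Htr3a. With DESeq2 the 1 lower gene was also Grin3a. Over all genes the term for sex gave 455 higher and 817 lower, against 295 and 482 without it. Among partner genes the number higher, 2, was 5 with DESeq2 and 0 to 3 without each library. The number lower, 2, was 7 with DESeq2, 4 with a term for sex, 1 with the authors' normalized values under limma (pseudocount 0.5), and 0 to 2 without each library. Other normalizations, no filter, counts not rounded and robust estimation off left each of these counts within 1.5 times, though by edgeR Gria1 missed the threshold with robust estimation off (adjusted p = 0.0508). Gria1 also missed it with limma on the authors' values at pseudocount 0.5 (0.0674), and Gabra3 with limma-voom (0.0572). The cause was not tested. Over 24 named receptor genes and these alternatives, 409 of 447 values kept their sign and their side of the threshold. Most of these genes had no call to lose, so that share does not measure how firm the calls are. The call was lost in 25 values, all of the 4 genes past the threshold. Gabra3 lost it in 6 of 18 alternatives, Htr1a in 4 of 18, Gria1 in 8 of 19 and Htr3a in 7 of 17. In 7 values a call was gained, and 6 values changed sign. The 6 values that changed sign belong to 4 genes that did not pass. Over the libraries left out in turn, the log2 fold change ranged from -0.023 to 0.44 for Gabbr2, -0.39 to 0.14 for Chrm2, -0.38 to 0.038 for Chrna6 and -0.11 to 0.034 for Grin2d. Of 208 values of 11 named partner genes, 0 changed sign. With the authors' table at a pseudocount of 1 the log2 fold change was 1.85 for Gabra3, 1.59 for Htr1a and -0.40 for Htr3a, since a pseudocount shrinks low genes. No paired analysis was possible because the labels mention pairs without saying which libraries form one, and the titles of the genotypes share 1 number only. Low counts limit the precision for most receptor genes.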
